A study of Mus musculus with 11 samples.

Results

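Nuclear-encoded subunits of the mitochondrial respiratory chain were described in vascular endothelial cells sorted from mouse retinas after intravitreal injection of oncostatin M (OSM), an interleukin 6-type cytokine, or of PBS. The genes were defined by gene type and symbol, in a rule set with earlier results of these data known. It takes protein-coding genes in GENCODE by the patterns that follow. Symbols begin with Ndufa, Ndufb, Ndufc, Ndufs or Ndufv and a number (complex I), or are Sdha to Sdhd (complex II). Others begin with Uqcr or are Cyc1 (complex III). The rest begin with Cox4 to Cox8 and a letter a to c (complex IV), or with Atp5 (complex V). This gave 88 of the 55359 genes counted. The tissue-restricted isoforms (Cox6a2, Cox6b2, Cox7a1, Cox7b2, Cox8b, Cox8c and Ndufa4l2, 7 in all) were set apart, which left 81 genes, 37 of complex I, 4 of complex II, 9 of complex III, 12 of complex IV and 19 of complex V. Ndufa4 was placed in complex IV, of which its protein is now regarded as a subunit. Cox4i1 and Cox4i2 are not matched by the symbol pattern and were followed only as a pair of isoforms.

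All 11 mice were C57BL/6 pups in the model of oxygen-induced retinopathy (OIR), in which 75% oxygen from postnatal day 7 (P7) to P12 closes retinal capillaries and the return to room air is followed by neovascularization. At P12, 5 mice had received 0.5 µL of OSM at 100 ng/µL and 6 had received 0.5 µL of PBS. At P17, CD31+ CD45- cells were sorted from both retinas of each mouse, and 500 pg of RNA per mouse was amplified for single-read sequencing. Mice 1 to 4, 5 to 8 and 9 to 11 were 3 litters, each with its own OIR run, so litter and run cannot be told apart. OSM was given to mice 1 and 2 of litter 1, to mice 5 and 6 of litter 2 and to mouse 9 alone of litter 3. Every mouse had been through OIR, so no value below describes a retina without it.

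Complexes I and II pass electrons from NADH and succinate to ubiquinone, complex III passes them on to cytochrome c, and complex IV passes them to oxygen. Complexes I, III and IV pump protons across the inner mitochondrial membrane, and complex V (ATP synthase) uses the gradient to make ATP. Each complex except complex II also holds subunits that are encoded by mitochondrial DNA, so its assembly draws on both genomes. Endothelial cells are known for a strong use of glycolysis, while respiration contributes to their biosynthesis and proliferation.

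The libraries held 26697990 to 56033479 counted reads per mouse (median 32500202). The 12 endothelial markers, Pecam1 and Cdh5 among them, took 1.65 to 2.27% of the reads of a mouse, and the 10 leukocyte markers at most 0.00846%. The 14 rod and cone markers took 0.0218 to 0.591%, with the highest values in OSM mice 5 and 6 (0.591% and 0.198%), and the 12 mural cell markers 0.0409 to 0.221%, with the highest values in PBS mice 7 and 11 (0.168% and 0.221%). The 10 Müller glia markers took 0.174 to 0.219% and the 12 retinal neuron markers 0.00116 to 0.0118%. The 9 Müller glia markers tested had 0.898 to 1384 CPM (median 17.2). Their median log2 fold change was -0.38, with 3 above 0 and 6 below, and their median differences were 0.13, -0.44 and -2.49 in litters 1, 2 and 3. The erythrocyte and platelet markers took 0.0369 to 0.114% with OSM and 0.0127 to 0.0614% with PBS. Of 12, 8 were tested, and their log2 fold changes had a median of 1.11, 7 of them above 0, the globin genes among them. Of these 8 markers, 5 had an unadjusted edgeR p under 0.05 with OSM higher, against 2.25% of all genes. OSM was higher in all 3 litters for 5 of the 8, against 11.1% of all genes. The part of any of these cell types in the differences between OSM and PBS below was not tested. In such bulk samples, fewer cells of a type and less RNA per cell cannot be told apart.

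The 81 subunit genes took 1.27 to 1.78% of the reads of a mouse, and 79 of them passed the filter on low counts. The remaining 2, Ndufb11b and a readthrough gene that also carries the symbol Atp5po, had 0 reads in every mouse. Levels are given as counts per 1000000 reads (CPM) and, between genes, as CPM per kilobase of the canonical transcript. On that scale the median subunit of complex V stood at 182, of complex IV at 178, of complex III at 139, of complex I at 100 and of complex II at 82.2, over all 11 mice. The order depended on the length used: per kilobase of all annotated exons the medians were 49.1 for complex V, 24.1 for complex IV, 76.4 for complex III, 34.9 for complex I and 34.5 for complex II, so that complex III came first and complex IV last.

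Per kilobase of the canonical transcript, Atp5f1b, the catalytic beta subunit of ATP synthase, was the highest with 1030.0 ± 69.0 CPM (SD, n = 11). Cox6a1 with 739.5 ± 80.0 and Cox6b1 with 577 ± 92.4 CPM (SD, n = 11 each), both small nuclear-encoded subunits of complex IV, followed. In complex III the highest was Uqcr10 with 439 ± 111 CPM per kilobase (SD, n = 11), a small accessory subunit, and Uqcrc1, a core subunit, stood at 428 ± 45.1 (SD, n = 11), a difference within their spread. The lowest of the 79 were Cox5b-ps (0.47), Atp5mg (3.85) and Ndufb2 (8.60 CPM per kilobase).

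**Figure D1:**
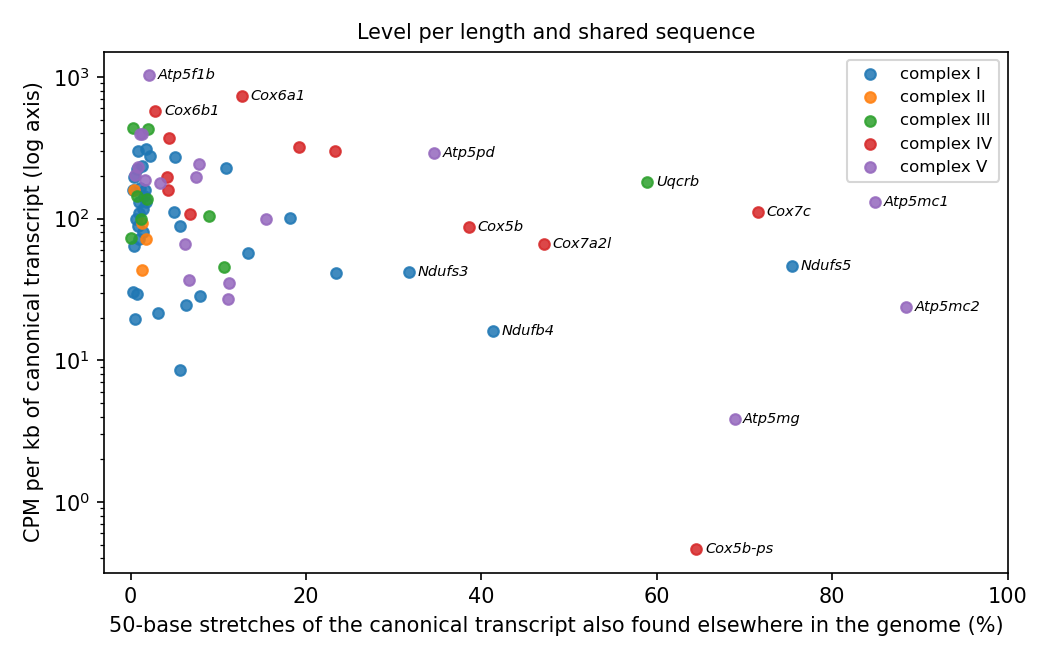
Level of the 79 subunit genes in CPM per kb of canonical transcript (log axis, mean of 11 mice) against the percentage of the transcript's 50-base stretches that occur elsewhere in the genome, 1 point per gene and 1 color per complex. Atp5f1b is the highest at 1030.0, and the genes named beyond 30% on the horizontal axis include Atp5mg at 3.85 and Cox5b-ps at 0.47.

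Some of the low levels belonged to genes that share sequence with other places in the genome. The share of all 50-base stretches of the canonical transcript that also occur elsewhere was over 30% for 12 of the 79 genes, and single reads from such stretches may be dropped when they are counted. Among these were Atp5mc2 (88.4%) and Atp5mc1 (84.9%), whose mature protein, the c-ring subunit of ATP synthase, is the same, Ndufs5 (75.4%), Cox7c (71.5%), Atp5mg (68.9%), Uqcrb (58.9%) and Ndufb4 (41.3%). Atp5mg, which encodes the g subunit of ATP synthase, had 0 to 364 reads per mouse, and its level is uncertain. A further overlap concerned 27 of the 79 genes, for which over 10% of the canonical exons lie under exons of another annotated gene, on either strand. Of the genes with both few shared stretches and few shared exons there were 44, and they are counted separately below. The part of shared sequence in the levels was not tested.

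Levels of a given gene were close between mice. The median SD of log2 CPM over the 11 mice was 0.23 for the 79 genes and 0.54 for all 17050 genes tested. The 2 sets were not matched for level, with medians of 135 and 11.7 CPM. The median SD was 0.21 for the 12 endothelial markers, 0.25 for 13 TCA cycle enzymes and 0.30 for 99 cytosolic ribosomal protein genes. For 8 mitochondrially encoded subunits it was 0.60. Atp5f1b had the smallest SD, 0.10, with 1794 to 2210.5 CPM, and Atp5mg had the largest, 1.29.

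Promoters were examined for the binding sequences of 3 factors known to act on respiratory chain genes. RefSeq promoter windows (GRCm38.p6, 250 bases before to 50 after the start) were found for 64 of the 79 genes, and both strands were searched. The binding sequence of nuclear respiratory factor 1 (NRF1), GCGCA, any base, then GCGC, was in the windows of 17 of the 64 genes (26.6%) and of 7.17% of the 17492 genes with a window. With a T as the middle base it was in 5 of 64 (7.81%, against 1.47%). CCGGAAG, bound by the ETS factor GABPA, was in 16 (25%, against 12.9%), and AAGATGGC, bound by YY1, was in 10 (15.6%, against 3.57%). Windows of 2 genes that hold an NRF1 sequence and of 1 that holds CCGGAAG are given, cut to the bases from 200 before the start up to the first exon. They come from a short list of genes picked by hand, and hold a match in the part outside every annotated exon. The other genes with a match were not all checked for this. The windows given are on the minus strand of GRCm39, and capitals mark the matched bases.
Ndufb4, complex I, chr16:37474816-37474930, NRF1 sequence beginning 191 bases before the start: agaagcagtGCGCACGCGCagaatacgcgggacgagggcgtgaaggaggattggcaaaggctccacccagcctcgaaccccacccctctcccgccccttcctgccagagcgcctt
Ndufs5, complex I, chr4:123612003-123612179, NRF1 sequence beginning 98 bases before the start: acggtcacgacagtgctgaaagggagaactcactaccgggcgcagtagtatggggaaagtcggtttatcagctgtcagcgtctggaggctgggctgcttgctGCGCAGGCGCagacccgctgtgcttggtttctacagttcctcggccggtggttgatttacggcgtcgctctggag
Uqcr11, complex III, chr10:80242677-80242855, CCGGAAG beginning 66 bases before the start: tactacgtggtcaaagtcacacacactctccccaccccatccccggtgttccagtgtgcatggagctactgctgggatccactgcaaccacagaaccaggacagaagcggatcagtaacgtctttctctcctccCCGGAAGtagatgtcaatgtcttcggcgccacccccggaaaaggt
A match is a description of letters, and binding was not measured. The transcripts of the factors themselves were present, at 63.8 ± 9.55 CPM (SD, n = 5) with OSM and 61.9 ± 11.5 CPM (SD, n = 6) with PBS for Nrf1 and 49.7 ± 11.1 CPM (SD, n = 5) with OSM and 51.1 ± 18.4 CPM (SD, n = 6) with PBS for Gabpa.

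None of the 79 genes passed an adjusted p of 0.05 between OSM and PBS in edgeR with litter as a term, and neither did any of the other genes tested (0 of 17050, 0%). The lowest adjusted p among the 79 was 0.955. Without adjustment, 9 of the 79 had p under 0.05, all with OSM higher. Over all genes 4.96% had p under 0.05 (846 of 17050), 2.25% with OSM higher and 2.71% with OSM lower. The 79 log2 fold changes (OSM over PBS) ran from -0.71 to 0.41 with a median of 0.11, against -0.014 for all genes. The lowest was that of Atp5mg, whose level is uncertain, and it lay within its own standard error of 0. The fold changes were above 0 for 67 genes and below 0 for 12, where 48.4% and 51.6% of all genes lay above and below. With DESeq2, 0 genes of the 79 passed adjustment and 12 had an unadjusted p under 0.05 with OSM higher. The shares over all genes above are those of edgeR. They were not worked out for DESeq2, with which the paper reports differentially expressed genes in these samples.

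**Figure D2:**
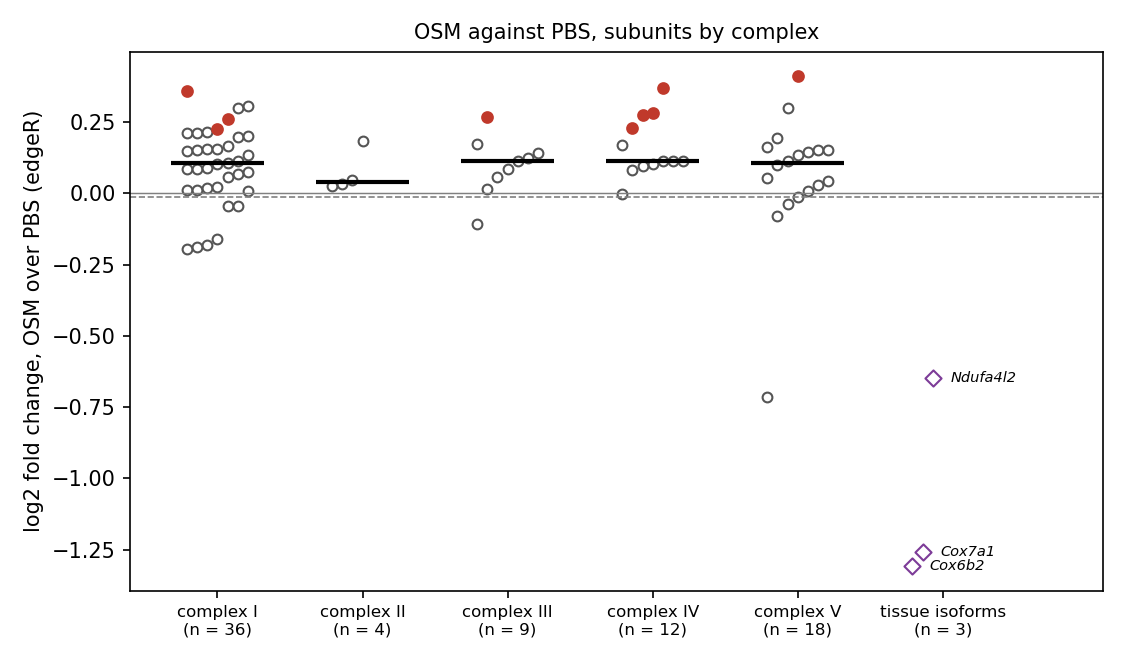
Log2 fold change of OSM over PBS from edgeR with litter as a term, 1 point per gene, by complex and for the 3 tissue isoforms tested (diamonds). Bars are the medians of each complex, the dashed line is the median of all genes tested (-0.014), and filled red points are the 9 genes with an unadjusted p under 0.05. The bars of complexes I, III, IV and V lie at 0.11 and that of complex II at 0.039.

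The median was above 0 in each complex. In complexes I, III, IV and V the median log2 fold change was 0.11, with 30 of 36, 8 of 9, 11 of 12 and 14 of 18 genes above 0. In complex II it was 0.039, with 4 of 4 above 0. With 1 mouse left out the medians stayed above 0, but without OSM mouse 9 they were 0.047 for complex I, 0.0019 for complex II, 0.041 for complex III and 0.037 for complex V, and without OSM mouse 1 they were 0.038 for complex III and 0.040 for complex V. Mouse 9 was the only OSM mouse of litter 3, so without it no comparison within litter 3 is left. For complex IV the medians ran from 0.097 without PBS mouse 11 to 0.18 without PBS mouse 3. Complexes II and III also moved with PBS mouse 7, to 0.11 and 0.18 without it, and with PBS mouse 11, to 0.010 and 0.057. The median standard error of a gene was 0.12, which is as large as these medians. The 24 catalytic or core subunits had a median of 0.055, 19 above 0 and none with an unadjusted p under 0.05, and the other 55 had a median of 0.13, 48 above 0 and 9 with p under 0.05. The 44 genes with few shared stretches and exons had a median of 0.11 (38 above 0, 7 with p under 0.05), and the other 35 also 0.11 (29 above 0, 2 with p under 0.05). The part of shared sequence in these differences was not tested.

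In complex I the genes with an unadjusted p under 0.05 were Ndufa7, Ndufb5 and Ndufa6, which encode accessory subunits around the catalytic core. Ndufa7 stood at 212, 130.4, 235, 241 and 269 CPM in OSM mice 1, 2, 5, 6 and 9 and at 130.0 to 209 CPM (median 174) in the 6 PBS mice. The groups overlapped, with OSM mouse 2 at the lower end of the PBS values and the other 4 OSM mice above all of them. Its log2 fold change was 0.36 (SE 0.13), with an unadjusted edgeR p of 0.0156 and differences of 0.27, 0.23 and 0.63 within litters 1, 2 and 3. Ndufa6 had 84.2 ± 10.1 CPM (SD, n = 5) with OSM and 71.4 ± 6.28 CPM (SD, n = 6) with PBS, a log2 fold change of 0.26 (SE 0.11) and differences of 0.25, 0.28 and 0.22 in the 3 litters. For Ndufb5 the log2 fold change was 0.23 (SE 0.094). All 3 genes were higher with OSM in every litter, although 59.0% of the exon sequence of Ndufa6 and 20.0% of that of Ndufb5 is shared with other genes.

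Among the core subunits of complex I, those that carry flavin or iron-sulfur clusters had values of both signs. In the N module, where NADH is oxidized, Ndufs1 had 46.8 to 107.6 CPM and a log2 fold change of 0.31 (SE 0.27), with differences of 0.30, 0.89 and -0.49 in the 3 litters. Ndufv1, which binds NADH and flavin, had 217 ± 39.9 CPM (SD, n = 5) with OSM and 259 ± 72.5 CPM (SD, n = 6) with PBS, a log2 fold change of -0.19 (SE 0.17) and litter differences of 0.17, -0.73 and 0.11. The signs of both genes turned without litter 2, to -0.077 for Ndufs1 and 0.13 for Ndufv1. Ndufv2 had a log2 fold change of 0.15 (SE 0.090). In the Q module, which passes electrons to ubiquinone, the median of 4 genes was 0.030, with Ndufs7 at -0.18 (SE 0.11) and Ndufs8 at 0.10 (SE 0.095). None of these had an unadjusted p under 0.05.

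Complex II, succinate dehydrogenase, had the lowest median of the complexes. Sdha, the flavoprotein that oxidizes succinate, had 305 ± 18.1 CPM (SD, n = 5) with OSM and 269.8 ± 34.9 CPM (SD, n = 6) with PBS, with a log2 fold change of 0.18 (SE 0.10) and an unadjusted edgeR p of 0.0956. Sdhb, the iron-sulfur subunit, stood at 245 to 332 CPM with OSM and 239 to 384 CPM with PBS. The membrane anchors Sdhc and Sdhd had 141 and 199 CPM with OSM against 136 and 199 CPM with PBS. For Sdhb, Sdhc and Sdhd the difference was smaller than its standard error.

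In complex III, Uqcrh, the hinge subunit that binds cytochrome c1, stood at 139.5, 125, 163, 211 and 183 CPM in the 5 OSM mice and at 110.5 to 191 CPM (median 132) in the PBS mice. The groups overlapped. The log2 fold change was 0.27 (SE 0.11), with an unadjusted edgeR p of 0.0398 and differences of 0.24, 0.20 and 0.41 in the 3 litters. The catalytic subunit Cyc1 (cytochrome c1) was the only gene of the complex below 0, at -0.11 (SE 0.090), and the core subunit Uqcrc2 stood at 0.12 (SE 0.070). Neither had an unadjusted p under 0.05.

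Complex IV, cytochrome c oxidase, held 4 of the 9 genes with an unadjusted p under 0.05. Ndufa4 (chr6:11897630-11907496, minus strand, GRCm39) stood at 209, 154, 280.1, 244 and 241 CPM in OSM mice 1, 2, 5, 6 and 9. In the PBS mice it stood at 145 to 216 CPM (median 165). OSM mouse 2 lay below the PBS median and the other OSM mice above it, and the groups overlapped. The log2 fold change was 0.37 (SE 0.12), with the lowest unadjusted p of the 79 genes, 0.0118 in edgeR (adjusted p = 0.955), and differences of 0.21, 0.47 and 0.46 in the 3 litters. Cox7a2, Cox6c and Cox7b, small subunits that span the membrane, had log2 fold changes of 0.28 (SE 0.11), 0.23 (SE 0.10) and 0.27 (SE 0.12). Cox7a2 stood at 182, 138, 169.5, 189 and 205 CPM in the 5 OSM mice and at 124 to 166 CPM (median 149) in the PBS mice, again with overlap. Cox7b differed by 0.044, 0.51 and 0.23 in the 3 litters, with little difference in litter 1. Cox5a and Cox5b, subunits on the matrix side, had 0.11 (SE 0.10) and 0.11 (SE 0.11).

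In complex V, Atp5mj, a small subunit of the membrane part, had the highest log2 fold change of the 79 genes, 0.41 (SE 0.14), with an unadjusted edgeR p of 0.0124. It stood at 105, 75.03, 123, 149.8 and 133 CPM in the 5 OSM mice and at 70.4 to 119 CPM (median 82.9) in the PBS mice. OSM mouse 2 lay among the PBS values and OSM mice 5, 6 and 9 lay above all of them. In the catalytic head (F1), the median log2 fold change of 5 subunits was 0.0072, and Atp5f1b had 1990.5 ± 161 CPM (SD, n = 5) with OSM and 1978 ± 120.0 CPM (SD, n = 6) with PBS. Of the c-ring genes, Atp5mc3, which had few shared stretches, had a log2 fold change of 0.16 (SE 0.092).

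Within litters the order of the groups was not the same everywhere. The median difference of the 79 genes, OSM minus PBS on the log2(CPM + 0.5) scale, was 0.10, 0.040 and 0.21 in litters 1, 2 and 3. OSM was higher for 65, 46 and 72 of the 79 genes, where 50.4%, 47.1% and 45.7% of all genes were higher. Litter 3 rested on 1 OSM mouse, mouse 9. In litter 2 the complexes split, with medians of 0.16 for complex IV and 0.060 for complex I but -0.018 for complex II and -0.026 for complex V. OSM was higher in all 3 litters for 35 of the 79 genes (11.1% of all genes) and lower in all 3 for 0 (12%). For 0 of the 79 were the 5 OSM values clear of the 6 PBS values, as they were for 0.405% of all genes. The count of 9 genes with an unadjusted p under 0.05 depended on single mice of both groups. It was 3 without OSM mouse 1 or PBS mouse 4, 4 without OSM mouse 6, PBS mouse 8 or PBS mouse 11, and 5 without PBS mouse 10. Without OSM mouse 9 the median log2 fold change of the 79 genes was 0.055, 57 were above 0 and 1 had an unadjusted p under 0.05. With litter as a term, leaving out mouse 9 leaves no comparison within litter 3, so that run is not the influence of 1 mouse alone. Without PBS mouse 7, 71 were above 0 and 13 had p under 0.05. The shares over all genes were not worked out for the runs with 1 mouse left out. A change in these counts can thus not be told apart from a change over all genes.

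**Figure D3:**
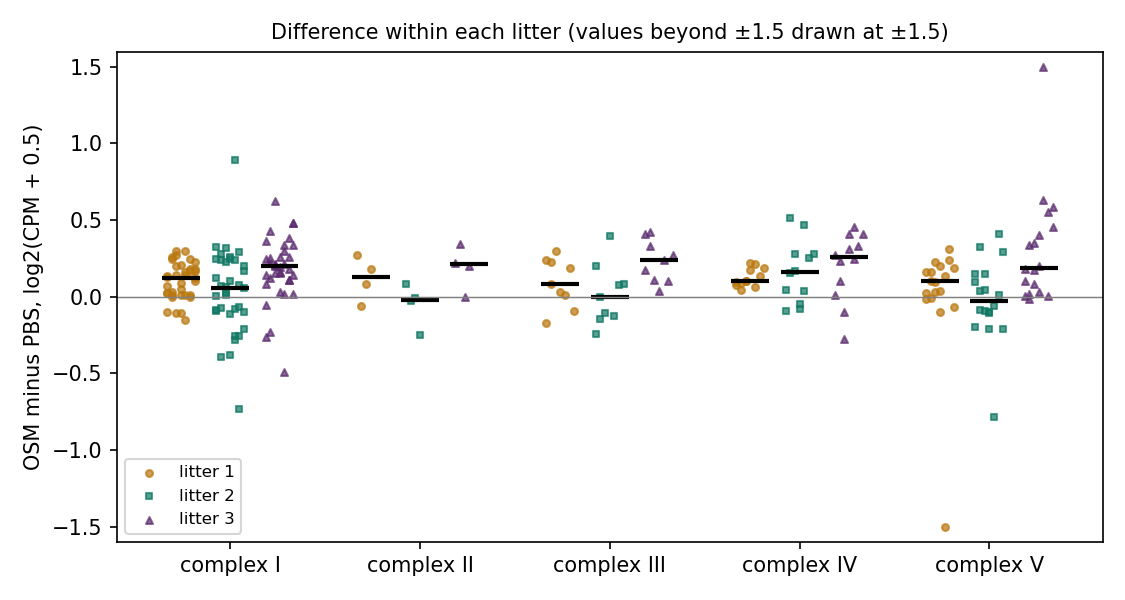
Difference between the OSM and PBS means within each litter on the log2(CPM + 0.5) scale, 1 point per gene, by complex, with bars for medians and values beyond 1.5 drawn at the edge. Litter 3 has the highest median in every complex, and the litter 2 medians of complexes II and V lie below 0.

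Transcript length moved with these differences, in a split, made after the values were seen, of all 79 subunit genes and of the other protein-coding genes with a mean of at least 10 CPM. The 27 subunit genes with canonical transcripts of up to 750 bases had a median log2 fold change of 0.15 (26 above 0), the 25 of up to 1600 bases 0.11 (21 above 0), and the 27 longer ones 0.047 (20 above 0). The other protein-coding genes, cytosolic ribosomal protein genes left out, followed the same order, with medians of 0.11 for 71 genes of up to 750 bases, 0.050 for 918 genes of up to 1600 bases and -0.0099 for 7648 longer ones. The share above 0 was 77.5%, 62.0% and 48.2% in these 3 classes, and the share with an unadjusted p under 0.05 and OSM higher was 12.7%, 3.81% and 2.33%. The 99 cytosolic ribosomal protein genes tested, which are also short, had a median of 0.15, with 87 above 0 and 12 with p under 0.05. The part of transcript length in the differences of the subunit genes was not tested.

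At an unadjusted p under 0.05, more of the genes differed between litters than between treatments. The mean log2 CPM of the 79 genes was 6.88, 6.67, 6.74 and 6.64 in mice 1 to 4, 7.04, 7.16, 7.20 and 6.93 in mice 5 to 8 and 7.14, 6.93 and 6.91 in mice 9 to 11. All 4 mice of litter 1 lay below the other 7. Of the 79 genes, 39 had an unadjusted p under 0.05 for litter in edgeR, against 10.3% of all genes, and 0 passed the adjusted threshold, as 3 of 17050 genes did (0.0176%). Leaving out 1 mouse at a time gave 21 to 36 genes, with 21 without OSM mouse 2, 22 without PBS mouse 4 and 25 without PBS mouse 7. The shares over all genes were not worked out for these runs. The lowest adjusted p was 0.103, for Ndufb5, with 92.0 ± 5.45 CPM in litter 1 (SD, n = 4) and 129.9 ± 16.97 in litter 2 (SD, n = 4). By length, 51.9% of the shortest, 48% of the middle and 48.1% of the longest subunit genes had p under 0.05 for litter, against 31.0%, 19.7% and 14.8% of the other protein-coding genes in these classes. A difference of the OSM effect between litters was found for 0 of the 79 genes after adjustment (0% of all genes), and 1, Ndufv1, had an unadjusted p under 0.05 (6.42% of all genes).

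**Figure D4:**
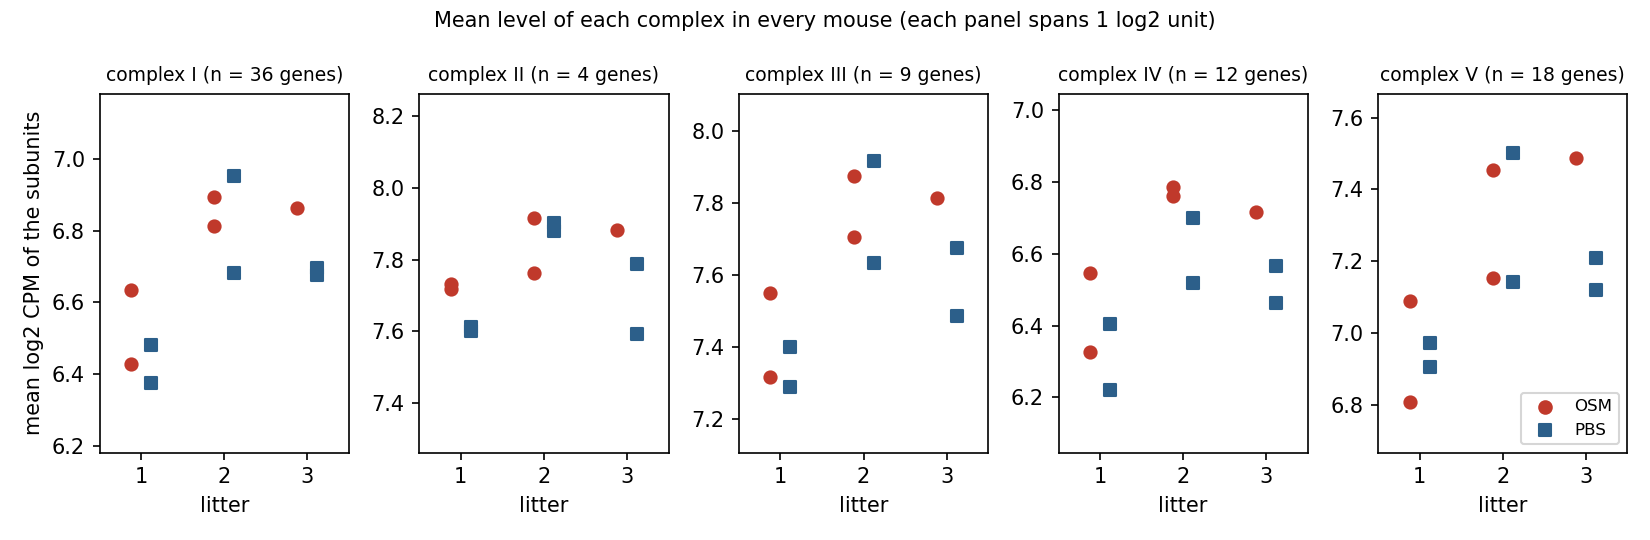
Mean log2 CPM of the subunits of each complex in every mouse by litter, for OSM (circles) and PBS (squares), with each panel spanning 1 log2 unit. The mice of litter 1 are low in most panels, and PBS mouse 7 is the highest mouse of litter 2 in complexes I, III and V.

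The tissue-restricted isoforms were nearly silent apart from Ndufa4l2. Cox7b2 and Cox8c, known from testis, had 0 reads in every mouse, Cox8b, a muscle and brown fat isoform, had 1 read in 1 mouse, and Cox6a2, a heart and muscle isoform, had 11 reads in mouse 7 and 0 elsewhere. Cox7a1, a heart and muscle isoform, had 0 to 79 reads, and Cox6b2, a testis isoform, 0 to 101. Their ubiquitous partners stood far above, with Cox6a1 at 347 to 485, Cox6b1 at 288 to 462, Cox7a2 at 124 to 205 and Cox8a at 133 to 224 CPM.

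Ndufa4l2, a paralog of Ndufa4 that hypoxia is known to induce, had 479 to 2331 reads per mouse. Of its canonical exon sequence, 75.2% lies under exons of Shmt2 on the opposite strand, so its level and share are uncertain. In OSM mice 1, 2, 5, 6 and 9 it made up 7.10, 10.4, 6.51, 11.0 and 8.56% of the reads of the pair. In PBS mice 3, 4, 7, 8, 10 and 11 it made up 11.5, 12.8, 24.9, 7.69, 12.7 and 26.8%. PBS mice 7 and 11 were the highest and PBS mouse 8 lay among the OSM mice. The level of Ndufa4l2 was 21.2 ± 5.54 CPM (SD, n = 5) with OSM and 35.6 ± 23.0 CPM (SD, n = 6) with PBS. Its log2 ratio to Ndufa4 differed by -0.90 between OSM and PBS, with -0.55, -0.84 and -1.30 in litters 1, 2 and 3. In an exact two-sided permutation test over all arrangements within litters, the p was 0.111, or 0.176 after adjustment over the 4 pairs tested, where the smallest p possible was 0.00926. The difference ran from -1.23 without PBS mouse 8 to -0.57 without PBS mouse 7. Mice 7 and 11 were also those with the highest mural cell marker shares. The 12 mural markers took 0.0605 to 0.112% with OSM and 0.0409 to 0.221% with PBS. All 12 were tested, and they had a median log2 fold change of -0.68, with 11 below 0. Within litters 1, 2 and 3 their median difference was -0.83, 0.28 and -1.32, so that in litter 2, unlike the ratio, it was above 0. The 10 metabolic targets of hypoxia-inducible factor that were tested had a median log2 fold change of 0.071, with 8 above 0. The part of mural cells or of hypoxia in the ratio was not tested.

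**Figure D5:**
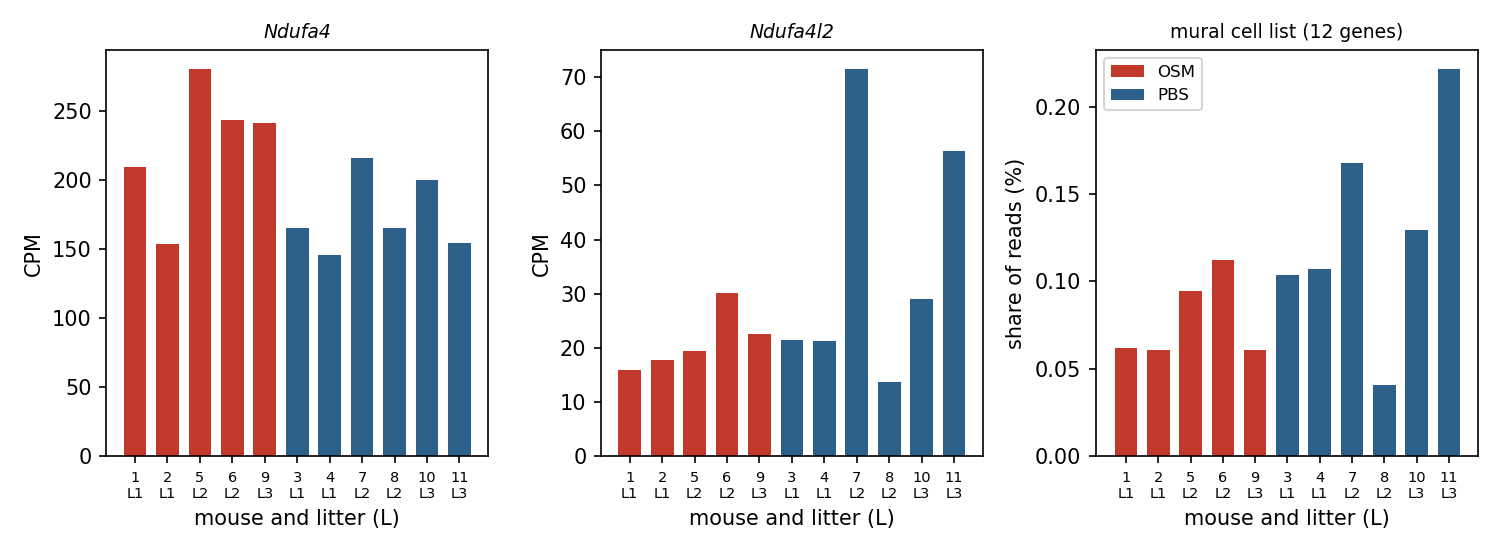
CPM of Ndufa4 (left) and Ndufa4l2 (middle) and the percentage of reads in 12 mural cell markers (right), 1 bar per mouse, with OSM in red, PBS in blue and the litter under each mouse number. PBS mice 7 and 11 are highest both for Ndufa4l2, at 71.5 and 56.4 CPM, and for the mural markers, at 0.168% and 0.221%.

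The other 3 pairs did not pass the test either. Cox4i2, known from lung and from hypoxia, made up 0.432 to 3.06% of the reads of the pair with Cox4i1, again highest in mice 11 and 7, and its log2 ratio differed by -0.91 (exact permutation p = 0.157, adjusted 0.176). For Cox6b2 to Cox6b1 the log2 ratio differed by -2.86 (exact permutation p = 0.0278, adjusted 0.111) and for Cox7a1 to Cox7a2 by -2.84 (exact permutation p = 0.176, adjusted 0.176). Both rest on few reads: with 5 reads added to each gene in place of 0.5, the differences were -1.77 and -1.72. Single mice moved all 3 values. The Cox4i2 ratio ran from -1.33 without PBS mouse 8 to -0.45 without OSM mouse 9, and was -0.49 without PBS mouse 7. The Cox7a1 ratio ran from -3.68 without OSM mouse 6 to -0.56 without OSM mouse 9, and the Cox6b2 ratio from -4.08 without OSM mouse 2 to -1.63 without OSM mouse 1, with -1.82 without OSM mouse 6. Without OSM mouse 9 the ratios rest on litters 1 and 2 only.

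Of the subunits encoded by mitochondrial DNA, 8 of 13 were tested and their median log2 fold change was -0.096, with 1 above 0. They took 0.653 to 0.934% of the reads in litter 1 and 1.16 to 1.95% in the other litters, and all 8 had an unadjusted edgeR p under 0.05 for litter, with 1, mt-Co1, passing adjustment. The nuclear and the mitochondrial subunits thus both stood lowest in litter 1. Within litters 1, 2 and 3 the median difference of the 8 between OSM and PBS was -0.49, 0.35 and -0.19, with all 8 higher with OSM in litter 2. The other 5, mt-Nd4l, mt-Co3, mt-Atp6, mt-Atp8 and mt-Co2, had 0 to 9 reads in every mouse, so no level of them can be given.

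Of the assembly factors and regulators, 0 passed adjustment in edgeR (0% of all genes). The median log2 fold change was -0.038 for 17 factors of complex I assembly (8 above 0), 0.11 for 4 of complex II, 0.028 for 9 of complex III, 0.14 for 21 of complex IV (15 above 0) and 0.098 for 5 of complex V. Foxred1, an assembly factor of complex I, was the only one of these with an unadjusted p under 0.05, at -0.57 (SE 0.19). The 15 regulators tested, among them Nrf1, Gabpa, Esrra and Tfam, had a median of -0.025 (6 above 0, none with p under 0.05). Tfam, which drives transcription of mitochondrial DNA, had 34.8 ± 8.17 CPM (SD, n = 5) with OSM and 34.5 ± 2.63 CPM (SD, n = 6) with PBS. The 13 enzymes of the TCA cycle, which feed complexes I and II, had a median of -0.083, with 8 below 0. The lowest was Dld, a subunit shared by several dehydrogenase complexes, at -0.37 (SE 0.14), with an unadjusted edgeR p of 0.0229.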

How the data were processed

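RNA of sorted cells was reverse-transcribed with a poly(A)-primed kit for low input, and the PCR-amplified cDNA was sequenced as single reads. Alignment by the authors to GRCm39 used STAR and counting per GENCODE gene used featureCounts, both at standard settings. The deposited values are counts of reads, not normalized. Total counts set the depth, but without molecular identifiers the spread over mice was taken as the error.

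GENCODE vM39 gave symbols, gene types and positions. Reads were filtered with filterByExpr (count minimum 10, 17050 genes), scaled by TMM (factors 0.972 to 1.02) and tested with edgeR 4.0.16 in R 4.3.3, a robust quasi-likelihood test with treatment and litter as terms and Benjamini-Hochberg adjustment over all genes at 0.05. Litter and treatment by litter were tested in the same way. Within-litter differences used log2(CPM + 0.5), and isoform ratios used log2 reads with 0.5 added. DESeq2 1.42.0 was an alternative, because the study used it.

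The subunit genes, the gene lists and the rule for named genes were chosen with earlier results of these data known. Named with values were isoform pairs, catalytic or core subunits, the highest, lowest, most variable and lowest-p gene of each complex and genes with an unadjusted p under 0.05. Genes outside this rule (Uqcr10, Cox7c, Uqcrb, Ndufs5, Ndufb4, assembly factors, regulators and TCA enzymes) were named after their values were seen. No fold change is printed for a named subunit within its own standard error of 0, except for the lowest value. P-values measure the spread between single mice. The labels do not say whether 1 or both eyes of a mouse were injected.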

Additional observations from a re-analysis of the deposited data

Results flagged for a closer look

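Among the named subunits, 104 sets of values of 1 gene in 1 treatment group were screened for a mouse set apart from the rest of its group, by Dixon's criterion at 95%. It was met in 3 sets (2.88%), where chance alone gives about 1 in 20. All 3 concerned PBS mouse 7. Cox6c stood at 168 CPM in that mouse against a PBS median of 136, and the gap to the next mouse was 0.750 of the range of the group. Sdhb stood at 384 CPM against a median of 277 (0.709 of the range), and Ndufs7 at 204 CPM against 132 (0.627 of the range). Mouse 7 also had the highest share of reads in the subunit genes (1.78%) and the highest level of Ndufa4l2.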

How the results depend on the processing

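No subunit gene passed the adjusted threshold under any alternative run, DESeq2 included. The median log2 fold change of the 79 genes stayed above 0, from 0.055 to 0.14 with 1 mouse left out and from 0.053 (without litter 3) to 0.14 under the others, and 56 to 71 genes lay above 0. The number with an unadjusted p under 0.05 and OSM higher, 9 as reported, was 4 with at least 10 counts required in every mouse, 4 without a filter, 2 without the litter term, 5 without litter 1, 3 without litter 3 and 3 without the 2 mice highest in photoreceptor markers, an alternative chosen after seeing the data. With 1 mouse left out it ran from 1 (without OSM mouse 9) to 13 (without PBS mouse 7). With OSM lower, 0 as reported, it was 1 with DESeq2, 1 without litter 1 and 0 to 2 with 1 mouse left out. The median of complex II was 0.14 without litter 2 and 0.14 without those 2 mice. Ndufs1 turned to -0.077 and -0.072 and Ndufv1 to 0.13 and 0.13 in these same 2 settings, which hold fewer mice. The 2 mice highest in photoreceptor markers, mice 5 and 6, are the only OSM mice of litter 2. With litter as a term, leaving them out leaves no comparison within litter 2, so the 2 settings are nearly the same run. Photoreceptor markers and litter 2 cannot be told apart in it. With 1 mouse left out, 21 to 36 genes had p under 0.05 between litters and 0 to 2 for treatment by litter. Shares over all genes with an unadjusted p under 0.05 were not worked out for any of these alternative runs. Levels per length depended on the length used, and the canonical transcript was chosen after seeing the data. No paired analysis was possible because the treatment groups share no mouse numbers. With 1 OSM mouse in litter 3, differences there have no replicate. The run without OSM mouse 9 leaves no comparison within litter 3, as does the run without litter 3.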
